A study of Mus musculus with 7 samples.

Results

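Expression of 10 genes for the making, carriage, breakdown and sensing of prostaglandins was examined in mouse pancreatic spheroids, out of 54446 genes in the count table. The genes were Ptgs1, Ptgs2, Ptges, Ptges2, Ptges3, Slco2a1, Hpgd, Ptger1, Ptger2 and Ptger4. They were picked by name as a pathway after an earlier look at these data had shown Slco2a1 higher in the post-caerulein spheroids, so their values in that comparison are a description, and calls from fits over all genes are listed for them without serving as support. Polyadenylated RNA was sequenced from 4 libraries of spheroids from wild-type C57BL/6J mice given caerulein, an analogue of cholecystokinin used to bring on pancreatitis, and from 3 libraries of spheroids from untreated wild-type C57BL/6J mice. The series title places the comparison in a study of what epithelium keeps after inflammation has resolved. All cultures shared a medium with EGF, hydrocortisone, bovine pituitary extract and cholera toxin, which keeps adenylyl cyclase active through the stimulatory G protein. The labels give no age, caerulein dose or interval, and do not say whether libraries came from separate animals or cultures. Any p-value therefore measures spread among libraries alone, and that spread may be technical.

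Prostaglandins are lipid messengers cut from membrane arachidonic acid. The cyclooxygenases encoded by Ptgs1 and Ptgs2 turn arachidonic acid into prostaglandin H2, which prostaglandin E synthases convert to prostaglandin E2. The signal ends when the transporter encoded by Slco2a1 carries prostaglandin into the cell and the cytosolic dehydrogenase encoded by Hpgd oxidises it. Prostaglandin E2 acts on the EP receptors, of which EP2 and EP4 raise cAMP and EP1 raises calcium. In the pancreas, as in other injured epithelia, the pathway is best known for the induction of Ptgs2 during inflammation.

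Total counts were 34783738 to 46744497 in the post-caerulein libraries and 41241985 to 46260577 in the untreated ones. Post-caerulein 04 (58.4) and untreated 03 (70.4) lay at the high end of the first principal component (51.7% of the variance). Untreated 01 and 02 (-67.7 and -63.4) lay at its low end, with post-caerulein 01 to 03 between (-10.8 to 8.06). Post-caerulein 04 and untreated 03 also form the smaller block of a term that gives back the authors' deposited table. They are called the smaller block below and the other 5 the larger block. What the block stands for is not in the labels. Post-caerulein 02 and 03 were a close pair (biological coefficient of variation 5.73%), as were untreated 01 and 02 (8.46%), while the closest of the remaining pairs reached 22%. The 11 ductal epithelial markers summed to between 14600 and 22000 CPM (read counts scaled to library size) in post-caerulein libraries and between 14400 and 15600 CPM in untreated ones. Some single markers were far less even than the sum. Cftr was at 4.67 to 4.76 CPM in post-caerulein libraries and at 39.1, 38.55 and 1.02 CPM in untreated 01 to 03. Sox9 was at 37.1 to 51.7 CPM and at 10.9, 12.95 and 61.7 CPM, in the same order.

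Of the 10 genes, 3 averaged at least 1.56-fold higher in post-caerulein spheroids. They were Slco2a1, the prostaglandin importer, Hpgd, the inactivating dehydrogenase, and Ptger4, the EP4 receptor. Slco2a1 averaged 113 ± 29.3 CPM in post-caerulein libraries and 26.2 ± 13.5 CPM in untreated ones (SD, n = 4 and n = 3). Hpgd averaged 16.4 ± 7.01 and 6.55 ± 1.30 CPM, and Ptger4 21.6 ± 2.83 and 13.8 ± 0.510 CPM, in the same order. The groups did not overlap for Slco2a1 and Ptger4, whereas for Hpgd post-caerulein 04 lay within the untreated range. Ptgs1, Ptgs2, Ptger1 and the synthase genes Ptges and Ptges2 overlapped between the groups too, and no read of Ptger2 was seen. Ptges3, the last of the synthase genes, differed by a small amount that depended on the scaling.

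Promoter sequences are shown for Slco2a1, Hpgd and Ptger4, which were higher together, and for Ptgs2, the inducible gene that was not. They run from 250 bases before to 50 bases after the RefSeq start (GRCm38.p6), and 9 of the 10 genes matched an entry of the RefSeq table. Capitals mark matches to the motifs given after the sequences. The windows are chr9:103008237-103008536 (plus strand) for Slco2a1, chr8:56294302-56294601 (plus strand) for Hpgd, chr15:5244138-5244437 (minus strand) for Ptger4 and chr1:150099781-150100080 (plus strand) for Ptgs2.
Slco2a1: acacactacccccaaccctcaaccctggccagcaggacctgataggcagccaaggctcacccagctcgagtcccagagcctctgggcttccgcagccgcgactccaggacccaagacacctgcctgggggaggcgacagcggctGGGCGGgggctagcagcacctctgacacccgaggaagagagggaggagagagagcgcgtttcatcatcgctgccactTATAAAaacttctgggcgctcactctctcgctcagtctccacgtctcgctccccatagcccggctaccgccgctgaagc
Hpgd: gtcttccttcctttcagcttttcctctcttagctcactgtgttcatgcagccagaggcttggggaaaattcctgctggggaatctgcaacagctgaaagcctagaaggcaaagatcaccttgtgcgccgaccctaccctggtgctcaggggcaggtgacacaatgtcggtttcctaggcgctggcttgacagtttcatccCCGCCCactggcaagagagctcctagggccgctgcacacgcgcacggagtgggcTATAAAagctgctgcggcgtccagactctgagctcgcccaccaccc
Ptger4: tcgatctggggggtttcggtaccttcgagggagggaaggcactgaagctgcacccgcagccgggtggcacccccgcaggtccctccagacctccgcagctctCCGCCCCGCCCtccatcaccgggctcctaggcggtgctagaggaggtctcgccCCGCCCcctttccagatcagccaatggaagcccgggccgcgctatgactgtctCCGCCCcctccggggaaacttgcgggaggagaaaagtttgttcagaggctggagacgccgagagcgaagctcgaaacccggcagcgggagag
Ptgs2: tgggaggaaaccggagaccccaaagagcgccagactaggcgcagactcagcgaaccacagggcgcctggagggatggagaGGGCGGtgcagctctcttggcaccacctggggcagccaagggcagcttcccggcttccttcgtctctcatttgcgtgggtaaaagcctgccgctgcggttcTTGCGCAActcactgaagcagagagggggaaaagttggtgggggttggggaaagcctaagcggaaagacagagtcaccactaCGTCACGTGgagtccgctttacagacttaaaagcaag

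Both strands of each window were searched for the cAMP response element (CRE) TGACGTCA, its 5-base core TGACG (which lies within the full site), the E-box CACGTG, the AP-1 site TGANTCA, the GC box GGGCGG, the TATA box TATAAA, the C/EBP site TTGCGCAA and an NF-kB consensus. Slco2a1 held a TATA box that began 29 bases before the start and a GC box 106 bases before it. Hpgd also held both sets of letters, but TATAAA began at base 5 after the start and not before it. Its GC box was 50 bases before the start. Ptger4 held 4 GC boxes, 2 of which overlapped by 1 base, and no TATA box. All positions count from the RefSeq start, and the start used in these spheroids was not tested. TATA boxes occurred in 13.6% and GC boxes in 35.6% of all 32817 RefSeq windows. Ptgs2 was the only one of the 4 with the C/EBP site (0.183% of all windows), which began 69 bases before the start, and with the CRE core (20.8%) and the E-box (7.15%). The CRE core and the E-box overlapped, at bases 14 to 18 and 17 to 22 after the start. None of the 4 windows held the full CRE (1.79% of all windows), the AP-1 site (7.81%) or the NF-kB site (0.411%) in these letters. The matches describe the windows only.

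Among the cyclooxygenases, Ptgs1 (chromosome 2, 36230426 to 36252272, GRCm38), the constitutive enzyme, was at 101, 37.6, 61.0 and 32.5 CPM in post-caerulein 01 to 04, against 58.9, 53.5 and 26.4 CPM in untreated 01 to 03. The groups overlapped, and the lowest library of each group was the one in the smaller block. Ptgs2 (chromosome 1, 150100031 to 150108227), the inducible enzyme, was at 36.3, 33.4, 25.4 and 80.5 CPM in post-caerulein 01 to 04, against 45.3, 31.5 and 66.4 CPM in untreated 01 to 03. Here the smaller block held the highest library of each group, the reverse of Ptgs1. Egr1, an immediate early gene, split the libraries the same way, at 97.1 CPM in post-caerulein 04 and 98.0 CPM in untreated 03 against at most 26.9 CPM elsewhere. Per exon length, the ratio of Ptgs1 to Ptgs2 was 4.33, 1.75, 3.73 and 0.627 in post-caerulein 01 to 04 and 2.02, 2.64 and 0.616 in untreated 01 to 03. Ptgs2 exceeded Ptgs1 only in post-caerulein 04 and untreated 03.

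Among the prostaglandin E synthases, Ptges (chromosome 2, 30889471 to 30903297), the inducible microsomal enzyme, was the lowest. It was at 0.785, 2.53, 2.70 and 2.19 CPM in post-caerulein 01 to 04 and at 1.36, 0.907 and 4.12 CPM in untreated 01 to 03, from 28 to 128 and from 43 to 185 reads a library. The untreated values enclosed 3 of the 4 post-caerulein values. Ptges2 (chromosome 2, 32395896 to 32405772), a membrane-associated synthase, averaged 30.4 ± 6.25 CPM in post-caerulein and 26.3 ± 1.19 CPM in untreated libraries (SD, n = 4 and n = 3), with overlap. Ptges3 (chromosome 10, 128058954 to 128077272), which encodes the HSP90 co-chaperone p23 and has also been described as a cytosolic synthase, was the steadiest of the 9 detected genes. It lay between 149 and 155 CPM in post-caerulein libraries and between 156 and 169 CPM in untreated ones. These ranges did not overlap, but with unscaled library totals they did, at 141 to 161 CPM and 159 to 166 CPM.

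**Figure D1:**
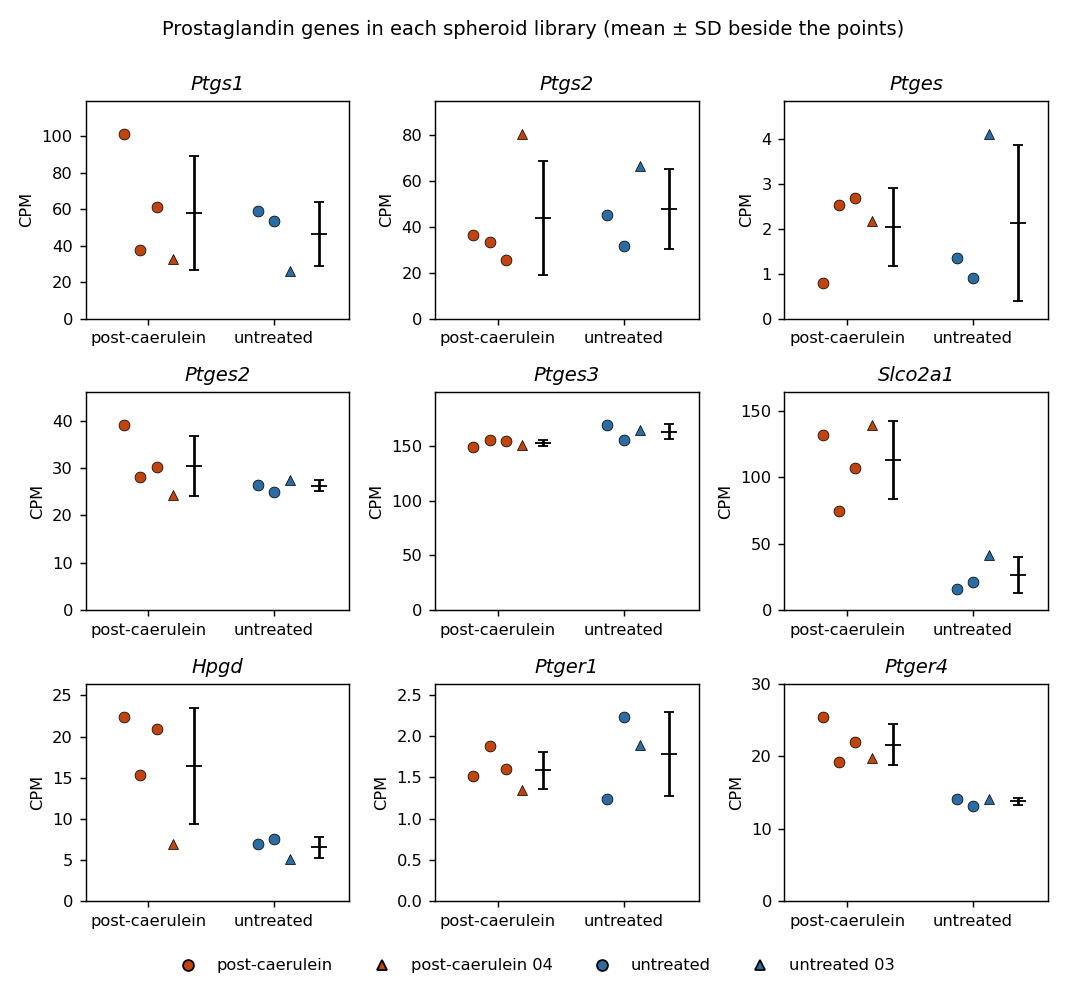
CPM of the 9 detected prostaglandin genes in each library, post-caerulein at the left and untreated at the right of each panel. Triangles mark post-caerulein 04 and untreated 03, and the bars beside the points give mean ± SD (n = 4 and n = 3). Slco2a1 and Ptger4 lie higher in every post-caerulein library than in any untreated one.

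Slco2a1 (chromosome 9, 103008002 to 103090451) encodes the transporter that takes up prostaglandins for breakdown. It was at 132, 74.4, 107 and 139 CPM in post-caerulein 01 to 04, against 16.0, 21.1 and 41.6 CPM in untreated 01 to 03. Every post-caerulein library lay above every untreated one, and untreated 03 was the highest of its group. The log2 change was 2.11 ± 0.37 (SE), a 4.31-fold difference, in the fit with the group as its only term, and 2.27 ± 0.26 with the block. Within the larger block the mean difference was 2.46 on the log2 scale, and post-caerulein 04 exceeded untreated 03 by 1.74. In bulk RNA a change in the number of cells of a type and a change in RNA per cell cannot be told apart. Slco2a1 is also expressed by endothelium. The 8 endothelial markers summed to between 0.982 and 2.25 CPM in post-caerulein libraries and between 1.98 and 3.59 CPM in untreated ones. The markers did not share a direction. Vwf averaged 0.507 CPM in post-caerulein and 1.70 CPM in untreated libraries, whereas Pecam1 averaged 0.245 and 0.149 CPM. None of these 8 markers was at 0 in every library, but 6 stayed under 1 CPM throughout, among them Cldn5 (at most 0.0420 CPM), Kdr (0.0843 CPM) and Cdh5 (0.294 CPM).

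Hpgd (chromosome 8, 56294585 to 56321043) encodes the dehydrogenase that inactivates prostaglandin E2 after uptake. It was at 22.4, 15.3, 21.0 and 6.94 CPM in post-caerulein 01 to 04, against 6.96, 7.59 and 5.09 CPM in untreated 01 to 03. The 3 post-caerulein libraries of the larger block were at least 15.3 CPM, while post-caerulein 04 lay within the untreated range. Its log2 change was 1.32 ± 0.40 (SE) with the group alone and 1.14 ± 0.24 with the block. The difference was 1.40 in the larger block but only 0.44 between post-caerulein 04 and untreated 03, so its size was uneven between the blocks.

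Of the receptor genes, Ptger4 (chromosome 15, 5233399 to 5244187), for the cAMP-raising EP4 receptor, showed the tightest separation. It was at 25.4, 19.2, 21.9 and 19.7 CPM in post-caerulein 01 to 04, against 14.1, 13.2 and 14.1 CPM in untreated 01 to 03. The groups did not overlap, and the untreated libraries spanned less than 1 CPM. The log2 change was 0.65 ± 0.14 (SE) with the group alone and 0.64 ± 0.13 with the block, with differences of 0.69 in the larger block and 0.48 for post-caerulein 04 over untreated 03. Ptger2 (chromosome 14, 44988195 to 45003820), for EP2, the other cAMP-raising receptor, had 0 reads in all 7 libraries. The limit that a count of 0 allows, 3 counts, was 0.0631 to 0.0841 CPM in post-caerulein libraries and 0.0633 to 0.0743 CPM in untreated ones, and it covers counting error only. Ptger1 (chromosome 8, 83666678 to 83672753), for the calcium-raising EP1 receptor, lay between 1.34 and 1.89 CPM in post-caerulein libraries and between 1.24 and 2.23 CPM in untreated ones, from 50 to 106 reads a library. Whether the counting used strand was not stated, so its level is uncertain.

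**Figure D2:**
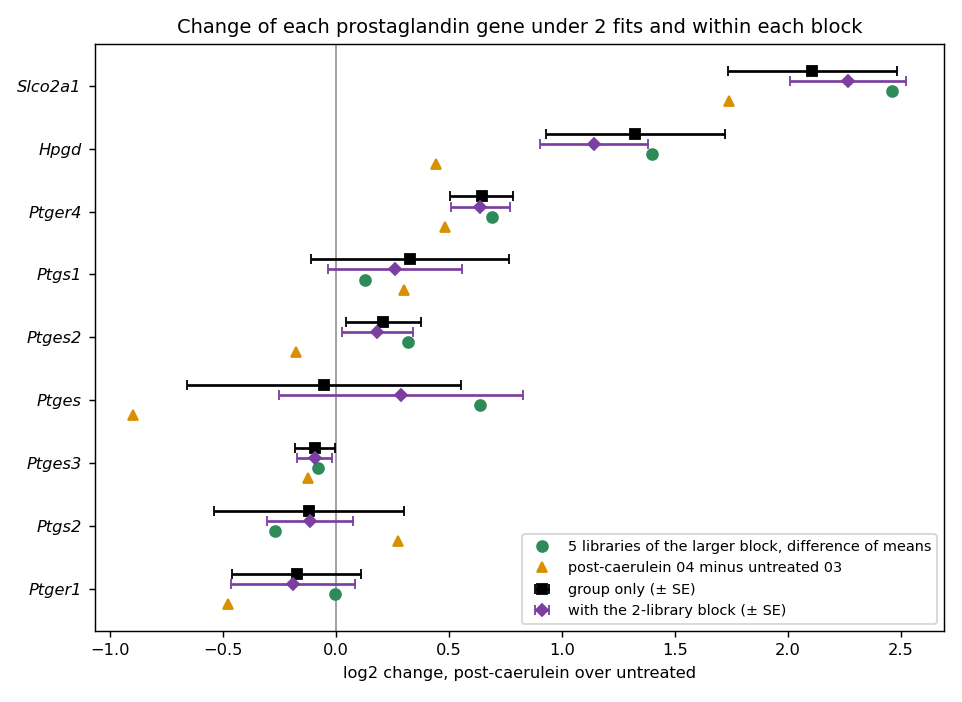
Log2 change, post-caerulein over untreated, of the 9 detected genes under both fits (squares and diamonds, ± SE), beside the difference of mean log2 CPM in the larger block (circles) and that of post-caerulein 04 over untreated 03 (triangles). Slco2a1, Hpgd, Ptger4 and Ptgs1 lie right of 0 in all 4 measures, at 2.11, 1.32, 0.65 and 0.33 with the group alone. Ptges, Ptges2 and Ptgs2 change sign between the blocks.

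Over all genes, edgeR's quasi-likelihood test with the group as its only term called 0 of 16438 genes (0.0%) at an adjusted p under 0.05, and 0 of the 9 prostaglandin genes that passed the low-count filter. Without adjustment 1561 genes had p under 0.05, 3 of them prostaglandin genes. DESeq2 called 509 genes (3.12%, of all genes 1.7% higher and 1.42% lower) and limma-voom 0, and the prostaglandin genes called by DESeq2 were Slco2a1, Hpgd and Ptger4. With the block as a term, the quasi-likelihood test called 251 genes (1.53%), and Slco2a1 was the prostaglandin gene among them. That call was lost without untreated 01, untreated 02 or post-caerulein 03, and with the close pairs of libraries summed. In the larger block alone 2247 of 16276 genes (13.8%, with 7.35% higher and 6.46% lower) were called. Of the 9 prostaglandin genes 3 were called, again Slco2a1, Hpgd and Ptger4, all higher. The untreated group of that fit was the close pair untreated 01 and 02 alone, and post-caerulein 02 and 03 were also a close pair. The spread in that fit may therefore be largely technical. With the group alone, leaving out untreated 03 gave 1149 calls, Slco2a1 and Ptger4 among them. The authors' deposited table gives a false discovery rate under 0.05 to 1023 of 12983 genes (7.88%, and 4.49% higher). Slco2a1, Hpgd and Ptger4 are among them, with log2 fold changes of 2.28, 1.15 and 0.65 in the authors' deposited table. The groups did not overlap for 1532 of the 16438 genes (9.32%, with 4.67% higher) and for 3 of the 9 prostaglandin genes, Slco2a1 and Ptger4 as higher and Ptges3 as lower. The genes were chosen with this comparison known, so nothing is read from these counts.

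In order of level per kilobase of exon, Ptges3 came first at 78.6 CPM per kilobase (mean of all 7 libraries, 74.7 to 84.5) and did not overlap with any other gene. Ptgs1 (18.5, from 9.20 to 35.3), Slco2a1 (10.7, from 2.24 to 19.6), Ptgs2 (10.2, from 5.70 to 18.1) and Hpgd (7.24, from 3.03 to 13.3) followed, each overlapping the next. Ptges2 (5.76, from 4.87 to 7.84) and Ptger4 (5.48, from 3.97 to 7.65) overlapped almost wholly. Ptges (0.571, from 0.215 to 1.13) and Ptger1 (0.356, from 0.264 to 0.476) formed a lower step that overlapped only with each other, and Ptger2 was last at 0. The place of Slco2a1 differed by group. Its mean per kilobase was 15.9 ± 4.12 in post-caerulein libraries, next below Ptgs1 at 20.2 ± 10.9, and 3.68 ± 1.90 in untreated libraries, below Hpgd at 3.89 ± 0.771 and Ptger4 at 4.14 ± 0.153 (SD, n = 4 and n = 3).

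**Figure D3:**
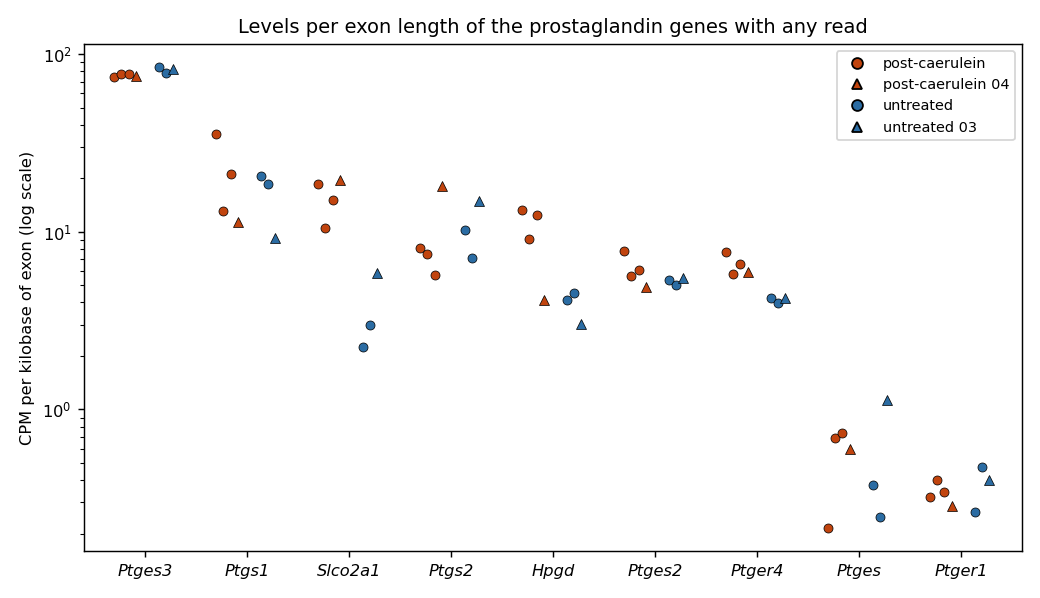
Level of each detected prostaglandin gene as CPM per kilobase of exon on a log axis, post-caerulein libraries left of untreated ones and genes ordered by their mean over all 7 libraries. Ptges3 lies above all others (78.6 CPM per kilobase on average), and Ptges and Ptger1 lie near or under 1.

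The wider pathway was read from 10 further lists of 98 genes, of which 76 passed the filter. With the group alone, edgeR's quasi-likelihood test called 0 of the 76, with 17 at an unadjusted p under 0.05, while DESeq2 called 4 and limma-voom 0. With the block 24 of the 76 (31.6%) had an unadjusted p under 0.05, as did 2877 of all 16438 genes (17.5%). In that fit 0 rose and 3 fell, against 0.651% of all genes higher and 0.876% lower, and these 3 calls were lost without untreated 01, untreated 02, post-caerulein 02 or post-caerulein 03 and with the close pairs summed. Of 15 genes for the release and reacylation of arachidonic acid 9 were tested and 0 passed the test with the block (1 at an unadjusted p under 0.05), with a median log2 change of -0.16 beside 0.00 over all genes. Pla2g4a, the cytosolic phospholipase that releases arachidonic acid, was at 27.1, 49.95, 46.2 and 42.5 CPM in post-caerulein 01 to 04 and at 72.4, 58.6 and 47.5 CPM in untreated 01 to 03. Its groups overlapped by 1 library, and its adjusted p was 0.539 with the group alone and 0.287 with the block (0.153 to 1 over all alternatives, edgeR, DESeq2 and limma). The acyltransferase gene Lpcat3 averaged 151 ± 55.4 and 102 ± 24.4 CPM, the ligase gene Acsl4 182 ± 50.2 and 153 ± 48.1 CPM, Mboat7 61.5 ± 9.65 and 59.9 ± 6.10 CPM, and Pla2g6 51.7 ± 10.4 and 56.9 ± 2.95 CPM in post-caerulein and untreated libraries (SD, n = 4 and n = 3).

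Synthases and receptors of the other prostanoids were low. Of 6 other terminal synthases 4 were tested and 0 passed (0 at an unadjusted p under 0.05 with the block, median log2 change -0.10). Ptgds, a prostaglandin D synthase, averaged 0.174 ± 0.114 CPM in post-caerulein and 0.329 ± 0.0768 CPM in untreated libraries, and Tbxas1, the thromboxane synthase, 0.506 ± 0.362 and 0.249 ± 0.159 CPM. Akr1b3, an aldose reductase with prostaglandin F synthase activity, was the abundant one at 36.3 ± 1.71 and 45.2 ± 11.9 CPM, and Prxl2b stood at 6.30 ± 1.49 and 6.35 ± 2.65 CPM. Only 1 of 6 other prostanoid receptor genes, Ptgdr2, passed the filter, at 0.182 ± 0.108 and 0.235 ± 0.0401 CPM and with 31 reads in each group. Ptgdr had 0 CPM in all libraries, and Ptgfr, Ptgir and Tbxa2r were at most 0.168 CPM, so Ptger4 was the most abundant of the prostanoid receptor genes listed.

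In the list for transport and inactivation, Slco3a1, another organic anion transporter gene whose product carries prostaglandins, was at 142, 106, 96.5 and 101 CPM in post-caerulein 01 to 04 and at 46.5, 51.4 and 77.0 CPM in untreated 01 to 03. Its groups did not overlap, and its log2 change was 0.98 ± 0.21 (SE) with the block. The adjusted p was 0.252 with the group alone and 0.0690 with the block (0.00537 to 1 over all alternatives, edgeR, DESeq2 and limma), so it did not pass either of these edgeR tests, and DESeq2 called it. Per exon length, the ratio of Slco2a1 to Slco3a1 averaged 1.05 ± 0.291 in post-caerulein and 0.441 ± 0.102 in untreated libraries (SD, n = 4 and n = 3). Abcc4, the exporter of prostaglandin E2, was the most abundant gene of the list at 789 ± 130 and 681 ± 280 CPM, with 595 CPM in post-caerulein 04 and 363 CPM in untreated 03. Cbr1, a carbonyl reductase, averaged 347 ± 131 and 293 ± 118 CPM, and Zadh2, a prostaglandin reductase, 103 ± 5.96 and 89.1 ± 15.3 CPM. Of the 10 genes 7 were tested, 0 passed with the block (3 at an unadjusted p under 0.05) and the median log2 change was 0.12. In the larger block alone 1 of the 7 was called higher, Slco3a1, and 2 lower, Ptgr1 and Slco4a1. Of all genes 7.35% were called higher and 6.46% lower in that fit.

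The lipoxygenase and epoxide branch of arachidonic acid metabolism had 13 genes, of which 8 were tested and 0 passed with the block (2 at an unadjusted p under 0.05, median log2 change 0.53). Lta4h, a leukotriene hydrolase gene, averaged 76.6 ± 5.66 CPM in post-caerulein and 86.6 ± 4.87 CPM in untreated libraries (SD, n = 4 and n = 3). Ephx2, the soluble epoxide hydrolase gene, averaged 60.8 ± 11.1 and 46.4 ± 31.8 CPM. The lipoxygenase gene Alox5 and the leukotriene synthase gene Ltc4s were low, at 1.52 ± 0.657 and 1.72 ± 1.54 CPM and at 3.08 ± 1.16 and 2.47 ± 2.04 CPM. The list's 1 tested gene without overlap was Cysltr1, a leukotriene receptor gene, at 1.26, 1.72, 1.29 and 2.99 CPM in post-caerulein 01 to 04 and at 0.545, 0.780 and 1.00 CPM in untreated 01 to 03. Its log2 change was 1.24 ± 0.27 (SE) with the block, with an adjusted p of 0.0714 (0.0635 to 1 over all alternatives, edgeR, DESeq2 and limma). In the larger block alone Ephx2 was called higher and Alox12, Alox5ap and Alox15 lower, beside 7.35% and 6.46% of all genes. Alox5ap and Alox15 did not pass the low-count filter with all 7 libraries.

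Genes downstream of EP4 and of the shared medium were read next. Of 13 cAMP and CREB response genes, all tested, 2 fell with the block. Pde4d, a phosphodiesterase that degrades cAMP, fell by 0.87 on the log2 scale (adjusted p = 0.0231 with the block, 0.273 with the group alone and 0.000871 to 1 over all alternatives; edgeR, DESeq2 and limma). It was at 48.3, 48.2, 44.6 and 35.5 CPM in post-caerulein 01 to 04 and at 94.0, 94.7 and 51.4 CPM in untreated 01 to 03, without overlap, and DESeq2 called it with the group alone. Fos, an immediate early gene that cAMP and growth factors induce, fell by 1.01 (adjusted p = 0.0304 with the block, 0.500 with the group alone and 0.00563 to 1 over all alternatives, which include DESeq2 and limma, and edgeR otherwise). Its smaller-block libraries were the highest of their groups, at 140 CPM in post-caerulein 04 and 236 CPM in untreated 03. Sik1, a CREB-induced kinase, averaged 376 ± 67.6 and 457 ± 68.7 CPM and Dusp1, a MAPK phosphatase, 405 ± 76.3 and 422 ± 216 CPM, neither past the test. The list had a median log2 change of -0.18 with the block, and 4 genes had an unadjusted p under 0.05. In the larger block alone 2 of the 13 were called higher, Nr4a1 and Rgs2, and 3 lower, Pde4d, Areg and Fos. Of all genes 7.35% were called higher and 6.46% lower there. Of 12 genes of the cAMP machinery 11 were tested, and 0 passed with the block (2 at an unadjusted p under 0.05, median 0.03). Gnas, for the stimulatory G protein, averaged 288 ± 48.6 and 309 ± 122 CPM, and the kinase subunit genes Prkacb, Prkar1a and Prkar2a 169 ± 14.4 and 136 ± 114, 267 ± 17.9 and 232 ± 20.8, and 133 ± 19.6 and 111 ± 9.71 CPM (post-caerulein and untreated, SD, n = 4 and n = 3).

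Of 10 genes for factors known to act on Ptgs2 transcription or mRNA, 1 fell with the block and 0 rose. With the block 6 had an unadjusted p under 0.05, and the median log2 change was -0.13. Cebpd, a C/EBP transcription factor gene, fell by 1.12 (adjusted p = 0.0231 with the block, 0.70 with the group alone and 0.00601 to 1 over all alternatives; edgeR, DESeq2 and limma). It was at 69.0, 59.5, 48.9 and 14.0 CPM in post-caerulein 01 to 04 and at 117, 120 and 37.3 CPM in untreated 01 to 03, lowest in the smaller block of each group, where Ptgs2 was highest. Zfp36, whose product destabilises Ptgs2 mRNA, averaged 119 ± 11.2 and 157 ± 24.9 CPM (adjusted p = 0.120 with the block, edgeR). Rela and Jun averaged 137 ± 29.9 and 134 ± 28.9, and 156 ± 39.2 and 188 ± 45.5 CPM. In the larger block alone 2 of the 10 were called higher, Celf2 and Egr1, and 1 lower, Cebpd. Of all genes 7.35% were called higher and 6.46% lower there. Next came 8 glucocorticoid genes, induced targets and the receptor gene Nr3c1, read because hydrocortisone was in the medium. Of these 8, 0 passed with the block (5 at an unadjusted p under 0.05, median 0.23). Fkbp5, the best known of them, was at 1556, 1138, 1417 and 891 CPM in post-caerulein 01 to 04 and at 466, 437 and 1136 CPM in untreated 01 to 03, and Sgk1 averaged 751 ± 121 and 409 ± 235 CPM. Tsc22d3, another glucocorticoid target, averaged 229 ± 83.1 and 303 ± 150 CPM. Zbtb16, a zinc finger factor gene, was at 39.2, 34.4, 39.9 and 27.0 CPM in post-caerulein 01 to 04 and at 10.2, 13.4 and 22.5 CPM in untreated 01 to 03, without overlap. DESeq2 called it, while its adjusted p was 0.262 with the group alone and 0.0804 with the block (0.00109 to 1 over all alternatives, edgeR, DESeq2 and limma). In the larger block alone 4 of the 8 were called higher, Nr3c1 among them, and 1 lower, beside 7.35% and 6.46% of all genes. The 8 HSP90 and co-chaperone genes, partners of p23, had 0 calls with the block (2 at an unadjusted p under 0.05, median -0.06), with Hsp90ab1 at 3129 ± 218 and 3269 ± 344 CPM, Hsp90aa1 at 723 ± 101 and 762 ± 34.1 CPM and Fkbp4 at 303 ± 44.7 and 326 ± 104 CPM.

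**Figure D4:**
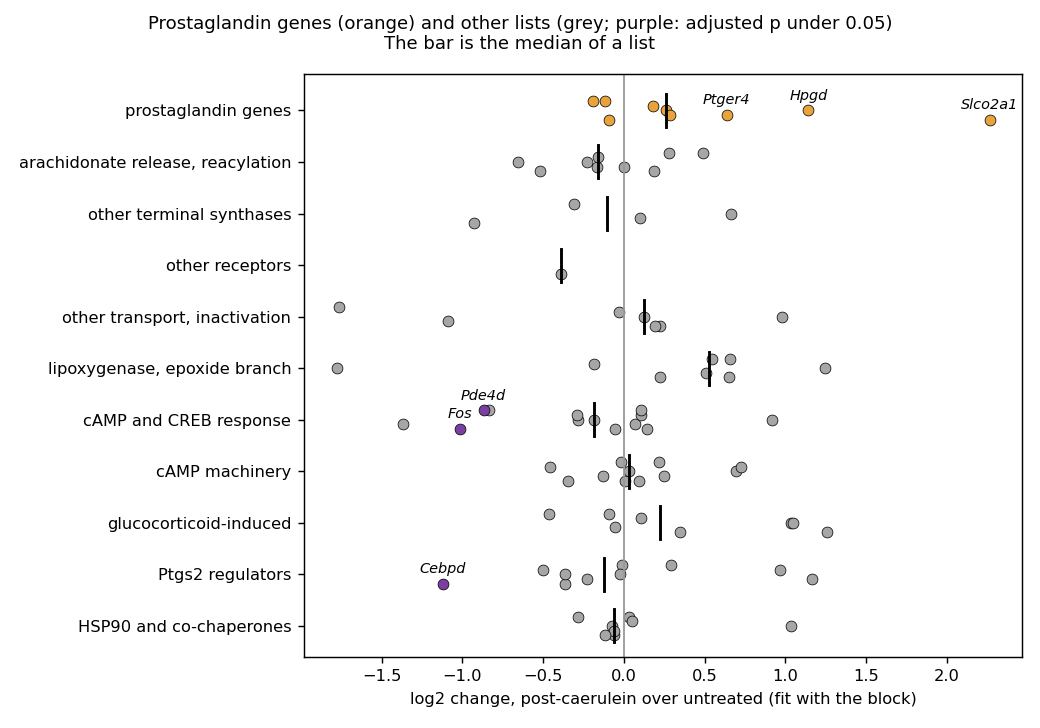
Log2 change, post-caerulein over untreated, in the fit with the block, for the prostaglandin genes (orange) and the other lists (grey, or purple where the adjusted p was under 0.05), with each list's median as a bar. Pde4d, Fos and Cebpd are the purple points, at -0.87, -1.01 and -1.12, and Slco2a1 lies farthest right at 2.27.

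The 5 named genes whose profile over the 7 libraries lay nearest to that of Slco2a1 were St6galnac2, Tmc5, Fam20a, Gml2 and Tmem267, out of 11019 genes searched (average log2 CPM of at least 1). The measure is the root mean square difference of log2 CPM after each gene was centred on its own mean, and it ran from 0.319 for St6galnac2 to 0.414 for Tmem267. St6galnac2, a sialyltransferase gene, was at 7.52, 7.69, 8.81 and 7.86 CPM in post-caerulein 01 to 04 and at 1.16, 1.65 and 2.27 CPM in untreated 01 to 03. In all 5, untreated 03 was the highest untreated library, as for Slco2a1. The likeness is a description over 7 libraries that include 2 close pairs.

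**Figure D5:**
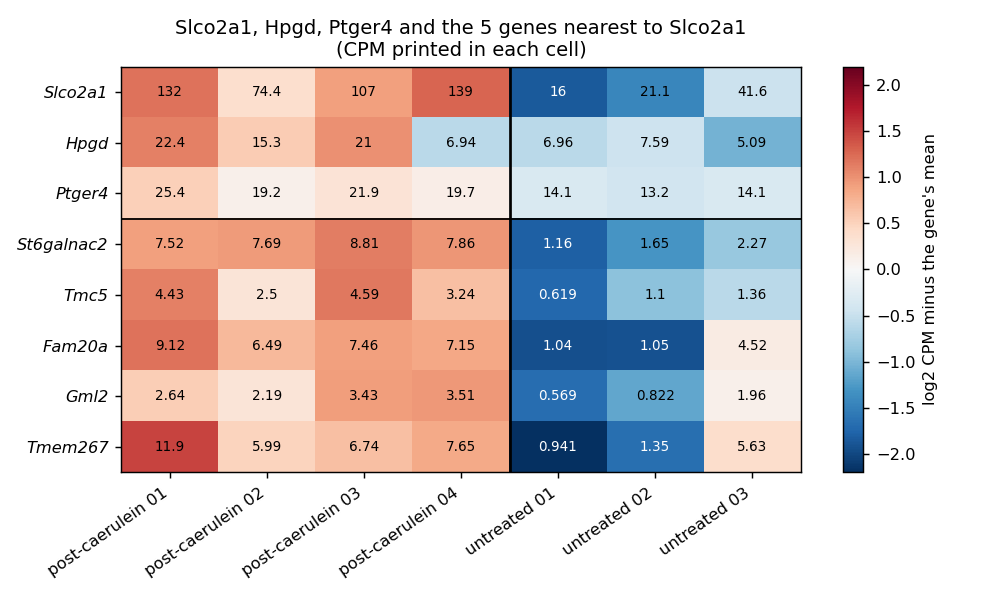
Profiles of Slco2a1, Hpgd and Ptger4 (above the line) and of the 5 genes nearest to Slco2a1 (below it) over the 7 libraries, post-caerulein at the left. Colour gives log2 CPM minus the gene's own mean and each cell prints the CPM. Untreated 03 is paler than untreated 01 and 02 in the Slco2a1 row, at 41.6 CPM.

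Markers of other cells were low apart from a few genes, and their part in the results was not tested. Beyond Chat and Rgs13, no marker was at 0 in all 7 libraries. Tuft cells express Ptgs1, and of their 10 markers Chat and Rgs13 were at 0 in every library, Pou2f3 was at most 0.0743 CPM, and the sum lay between 4.68 and 14.6 CPM in post-caerulein and between 4.41 and 22.4 CPM in untreated libraries, mostly from Dclk1 and Avil. In each group the sum was highest in the smaller block, through Dclk1 (10.3 CPM in post-caerulein 04, 18.3 CPM in untreated 03). Other tuft markers differed, as Trpm5 was lowest of its group in post-caerulein 04 (0.252 CPM) and Avil in untreated 03 (2.56 CPM). Leukocyte markers summed to 12.9 to 36.8 and 21.4 to 98.9 CPM, nearly all from Cd68, while Ptprc was at most 0.105 CPM and Adgre1 at most 0.0555 CPM. Fibroblast and stellate markers summed to 3.03 to 7.49 CPM in post-caerulein libraries and to 0.190 to 21.4 CPM in untreated ones, with the highest sum in untreated 03. Mesothelial markers summed to 2250 to 4220 CPM in post-caerulein libraries and to 1470 to 5010 CPM in untreated ones. These sums came almost wholly from Msln, with 3 of 5 under 1 CPM in all libraries. Msln was highest in the smaller block of each group, at 4219 CPM in post-caerulein 04 and 5013 CPM in untreated 03. Acinar markers summed to 3.05 to 12.0 CPM in post-caerulein and to 1.46 to 2.10 CPM in untreated libraries, without overlap. Ctrb1, a chymotrypsinogen gene, made up most of the post-caerulein sums of libraries 01 and 04, at 7.32, 0.971, 2.23 and 7.15 CPM in post-caerulein 01 to 04 and at 0.0495, 0.0422 and 0.223 CPM in untreated 01 to 03. It was among the genes called higher with the block and by DESeq2, from 742 reads in post-caerulein and 14 in untreated libraries.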

How the data were processed

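The authors deposited raw read counts per gene, with the exonic length of each gene, per the file headers. The submitters' processing notes name featureCounts (version 0.6.1) and GRCm38 (mm10). For aligner and strandedness, details were not given in the sources used here. Per the file headers, the authors' deposited edgeR table (version 3.2.2, per the submitters' processing notes) gives log2 fold changes, average log2 CPM, a likelihood ratio score, p-values and false discovery rates. Its design is not stated: a group-only refit called 320 genes, while a term for untreated 03 and post-caerulein 04 gave back its log2 fold changes to within 3.16e-08 and all 1023 calls.

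Symbols were matched for 54409 of 54446 genes. Counts were filtered (filterByExpr, minimum count 10, minimum total 15), TMM-normalised and tested over all 16438 genes kept with edgeR 4.0.16 (quasi-likelihood, robust, two-sided, Benjamini-Hochberg adjustment, threshold 0.05). CPM use TMM-scaled totals. Alternatives were that block, the larger block alone, the replicate number as a block, other normalisations and filters, DESeq2 1.42.0, limma-voom 3.58.1 and each library left out. Summing the close pairs was added after the data were seen. The procedure was tested on simulated counts. R 4.3.3 ran the tests, and matplotlib 3.10.9 the figures.

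The genes and lists were chosen with earlier results of these data known. Named genes are the 10 prostaglandin genes, up to 4 of each list (called genes first, then the most abundant) and the 5 nearest to Slco2a1. Pla2g4a, Egr1, Ptgr1, Slco4a1, Areg, Alox5ap, Alox12, Alox15, Cysltr1, Zbtb16, Ptger3 and the low receptor and marker genes were named after their values were seen. So were Nr3c1, Celf2, Nr4a1, Rgs2, Cftr and Sox9.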

Additional observations from a re-analysis of the deposited data

Results flagged for a closer look

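A sample far from the other post-caerulein libraries was found for 6 of the 67 genes named by rule. Chance marks about 1 in 20 groups of 4 independent values. That rate does not hold here, since post-caerulein 02 and 03 were a close pair and genes vary together. The 6 are therefore a description and not an excess over chance. The gap to the nearest library, as a share of the group's range, passed Dixon's critical value for each. Post-caerulein 04 was the far library for 4 of them. The exporter gene Abcc4 was lowest there, at 595 CPM, and so was the glucocorticoid target Tsc22d3, at 104 CPM. Msln was highest there, at 4219 CPM, as was Dclk1, at 10.3 CPM. Post-caerulein 01 was the far library for the other 2, with the lowest Prxl2b, at 4.09 CPM, and the highest Prkar2a, at 162 CPM. No prostaglandin gene had such a sample among the post-caerulein libraries. Groups of 3 were not examined.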

How the results depend on the processing

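With the group alone, 0 genes were called over all genes, among the 9 tested prostaglandin genes and among the 76 other pathway genes tested (each setting counts the genes its own filter kept). With the block of the deposited table these counts were 251, 1 and 3, in the larger block alone 2247, 3 and 25, and with DESeq2 509, 3 and 4. Without a low-count filter 23 genes were called over all genes, and 0 in the other sets. Leaving out each library in turn, with the group alone, gave 0 to 1149, 0 to 2 and 0 to 14 calls, the highest without untreated 03, and without post-caerulein 04 there were 57, 0 and 2. With the block, the counts without post-caerulein 01, 02, 03 and 04 were 131, 29, 3 and 2086 genes, 1, 1, 0 and 3 prostaglandin genes and 3, 0, 0 and 23 others, without untreated 03 they were 2267, 3 and 25, and without untreated 01 or 02 all were 0. The cause was not tested. With RLE or upper quartile factors, a filter of 50 counts in 3 libraries, limma-voom or the close pairs summed (with or without the block) all 3 counts stayed at 0.

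Across 25 alternatives the log2 change of Slco2a1 lay between 1.85 and 2.63, that of Hpgd between 0.99 and 1.59 and that of Ptger4 between 0.57 and 0.73, positive in each. These genes were chosen with this comparison known, so the ranges are a description. The smaller changes of Ptges2 (0.08 to 0.36) and Ptges3 (-0.14 to -0.06) also kept their sign in each alternative. The changes of Ptges (-0.47 to 0.88), Ptgs2 (-0.58 to 0.22), Ptgs1 (-0.06 to 0.58) and Ptger1 (-0.45 to 0.04) crossed 0. Ptger2 had no read, so no alternative gave it a value.

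Whether the replicate numbers of the titles pair the libraries was not settled. Deviations from the group means of same-numbered libraries correlated at 0.372, 0.141 and -0.21. These values cannot decide it, since the libraries of the smaller block carry different numbers. A fit with the replicate number as a block called 0 genes in each of the 3 sets. Depth limits Ptger1, Ptges and the other receptor genes most.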

Other observations

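Some pathway genes that passed neither edgeR test over all libraries, 1 of which (Slco4a1) DESeq2 called, divided untreated 01 and 02 from the other 5 libraries. Ptgr1, a reductase of prostaglandin breakdown products, was at 27.9, 24.0, 23.6 and 18.6 CPM in post-caerulein 01 to 04, against 80.9, 73.6 and 14.8 CPM in untreated 01 to 03. Slco4a1, an organic anion transporter gene, was at 1.74 to 2.87 CPM in post-caerulein libraries, against 12.8, 13.75 and 2.45 CPM in untreated 01 to 03. Alox15, a lipoxygenase gene, had 9 reads in all post-caerulein libraries and 111 in the untreated ones, at 1.56, 0.949 and 0.0667 CPM in untreated 01 to 03. With all libraries the filter left Alox15 untested. In these genes untreated 03 was about as low as the post-caerulein libraries.

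Areg, an EGFR ligand gene that cAMP induces, divided post-caerulein 01 to 03 from the rest. It was at 34.6, 27.1, 27.5 and 108 CPM in post-caerulein 01 to 04, against 117, 91.7 and 128 CPM in untreated 01 to 03. Ptger3, for the EP3 receptor, had 80 reads in post-caerulein and 8 in untreated libraries, and it stood at 1.47 CPM in post-caerulein 04 against at most 0.156 CPM in every other library. The filter left it untested.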
